A study of Sus scrofa with 6 samples.

Results

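The genes described here regulate programmed cell death or belong to the p53 network, and they were read in lung RNA of piglets from the last day before birth and from 2 days after it. A list of 52 gene symbols was looked up among the 14579 mRNAs of the deposited table of FPKM, a count of fragments scaled to the length of the transcript and to the number of fragments mapped in the library. A row was found for 35 of them. For 32 genes a reference table paired the Ensembl gene identifier of the row with the symbol. For the other 3 (BCL2L1, BCL2A1 and GADD45G) the symbol came only from the study's own list of differentially expressed mRNAs, so these genes were in view because the study had called them different between the groups, and their differences are given as a description. No row was matched to BCL2, MCL1, BAX, BOK, BCL2L11, BIK, BMF, HRK, HTRA2, BIRC2, FADD, TRADD, TNFRSF10B, TNFSF10, TP53INP1, GADD45A and ZMAT3, which were not analysed here. The members and the lists were chosen with earlier results of these data known.

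The animals were 6 female hybrid piglets from Tibetan sires and Meishan dams, each from a sow of its own. The fetal group held 3 piglets taken on the last day of gestation, and the neonatal group held 3 piglets taken 2 days after birth. No experimental treatment and no genetic change are stated, and the pigs were killed by exsanguination after an injection of ketamine. The paper mentions both caesarean and parturition, without saying which piglets each applies to. Whole lung tissue was used, 1 strand-specific Ribo-Zero library per piglet, and the depth of the libraries is not in the table and was not used here. The error used is therefore the spread between the 3 piglets of a group. In the fit, the spread of each gene was drawn toward that of all mRNAs of similar level. Surfactant protein transcripts were abundant in every library, with the type II cell marker SFTPC between 3170 and 3900 FPKM in the fetal group and between 4230 and 8790 FPKM in the neonatal group.

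Apoptosis runs along an intrinsic and an extrinsic route. In the intrinsic route, BH3-only proteins sense damage and either neutralise the protective BCL2-like guardians or switch on the pore-forming effectors BAX and BAK1, after which cytochrome c leaves the mitochondria and APAF1 assembles the apoptosome that activates caspase 9. In the extrinsic route, death receptors of the TNF receptor family recruit adaptors and caspase 8 or 10, a step held back by CFLAR, while the IAP proteins restrain caspases and receptor signalling further down. The p53 pathway induces several of the BH3-only genes together with its own brake MDM2, and after birth the lung removes surplus mesenchymal and epithelial cells by apoptosis while its septa thin.

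The neonatal and fetal means of log2(FPKM + 1) were compared by limma for all mRNAs, p was adjusted over all of them (Benjamini-Hochberg), and genes at or under 0.05 are called past the threshold. A log2(FC) is the neonatal minus the fetal mean on this scale, and it tends to understate the change of genes with low FPKM, with SE for its standard error. Of all mRNAs, 6.87% were past the threshold, 5.41% higher and 1.45% lower in the neonatal group. The split of the calls depended on scaling, as 78.8% of them were higher in the neonatal group in the values as deposited, 66.0% after median-of-ratios scaling and 57.9% after quantile normalization. All mRNAs together had a median log2(FC) of 0.13, which became -0.0090 after median-of-ratios scaling, so differences of the members are read against that shift.

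Of the 32 genes matched through the reference table, 0 were past the threshold in limma, where 7.47% of all mRNAs named in that way were, and 13 had an unadjusted p under 0.05, 11 of them with a higher and 2 with a lower mean in the neonatal group. Among all mRNAs an unadjusted p under 0.05 was reached by 24.2%, 17.6% higher and 6.60% lower. GADD45G, matched through the study's list, was the only 1 of the 35 past the threshold. When the table was restricted to mRNAs with FPKM above 1 in at least 3 samples, 3 members passed, since BAK1 and BID joined GADD45G. In 15 of the 35 genes (42.9%) the 3 neonatal values lay entirely above (12 genes) or below (3 genes) the fetal values. Among these were BCL2A1 and GADD45G, in view because the study had called them different. Of the 32 genes matched through the reference table, 13 (40.6%) had groups that did not overlap, 10 above and 3 below. Among all mRNAs 30.5% had groups that did not overlap, 20.9% with the neonatal and 9.64% with the fetal values on top. In bulk tissue a change in the number of cells of a type and a change in RNA per cell cannot be told apart.

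**Figure D1:**
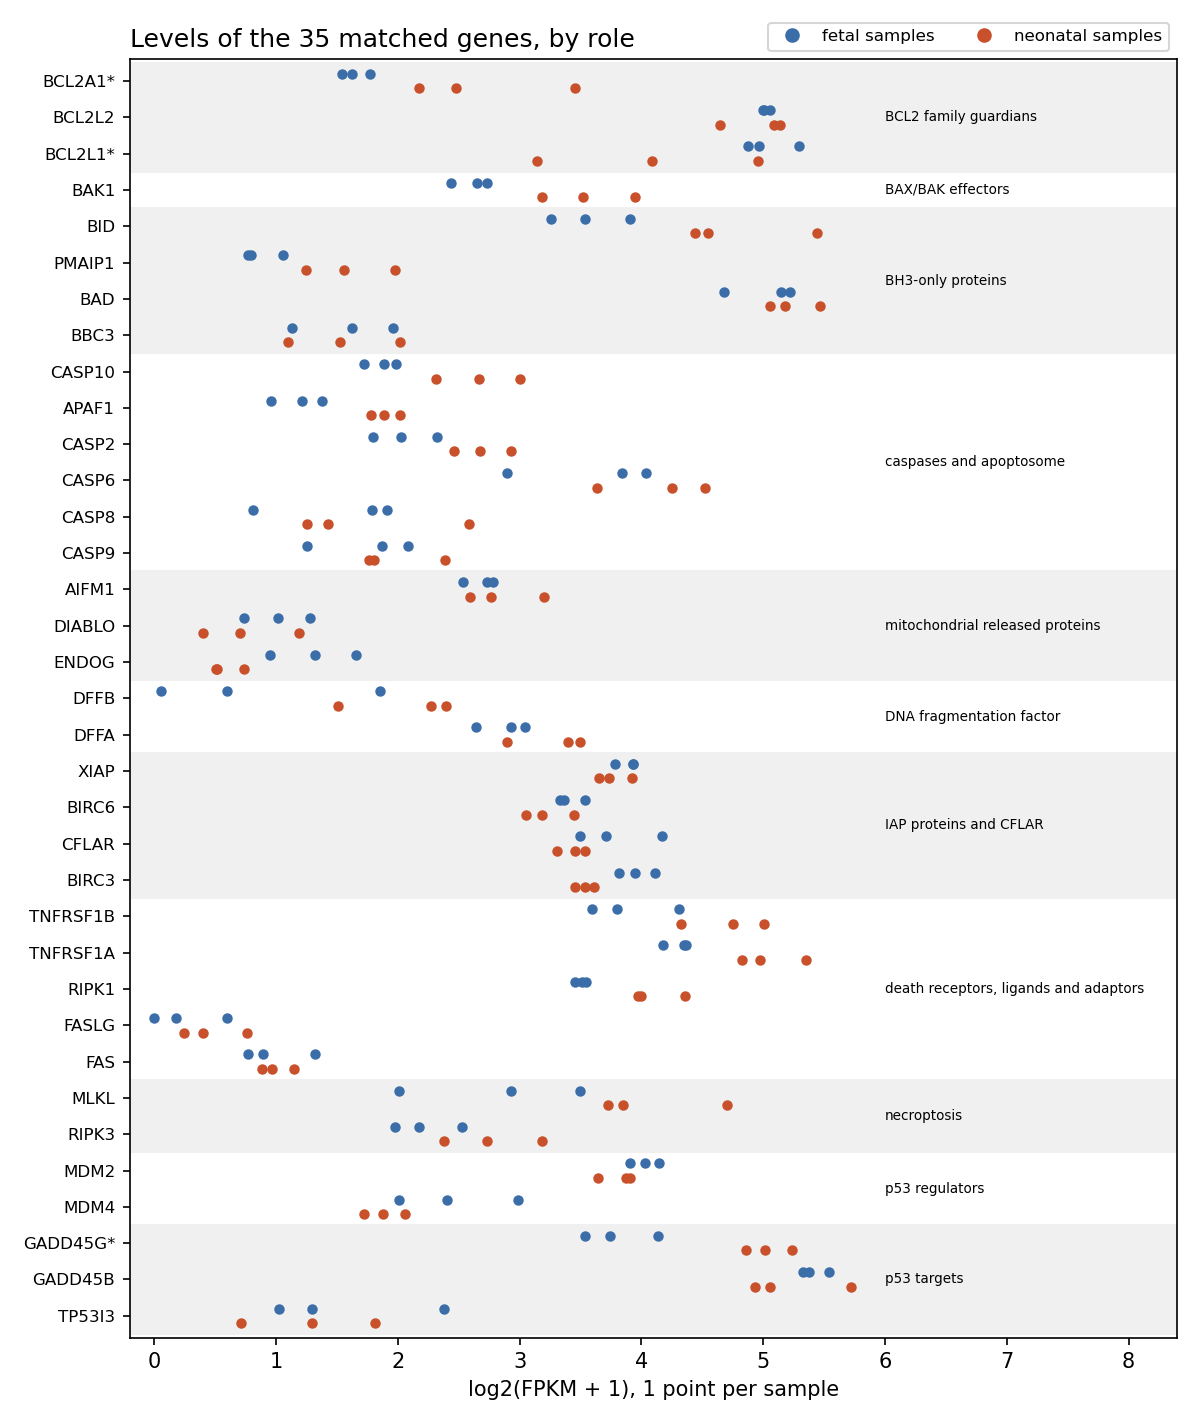
Level of each of the 35 matched genes as log2(FPKM + 1) on the x axis, with 1 point per sample, fetal samples in blue and neonatal samples in red, grouped by role along the y axis. An asterisk marks the 3 genes named through the study's list. The points of the 2 groups separate for 15 genes, among them BAK1, BID, APAF1, CASP10, TNFRSF1A, RIPK1 and GADD45G, and mix for genes such as BCL2L2, BBC3, FAS and AIFM1.

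FPKM is a level per transcript length, so the members can be ranked by it. Highest over all 6 samples was GADD45B, at a mean of 39.8 FPKM, followed by BAD at 34.3 FPKM and BCL2L2 at 31.0 FPKM. These 3 were not separated beyond their spread, since GADD45B ranged from 29.6 to 51.7 FPKM, BAD from 24.6 to 43.1 FPKM and BCL2L2 from 24.1 to 34.2 FPKM. Lowest was FASLG, which never exceeded 0.694 FPKM, followed by DIABLO at a mean of 0.893 FPKM, FAS at 1.01 FPKM and ENDOG at 1.02 FPKM, whose ranges overlapped. In the fetal group GADD45B, BCL2L2 and BAD lay between the 90.3 and the 92.8 percentile of all mRNAs, and FASLG lay at the 6.01 percentile.

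Among the guardians of the BCL2 family, which bind and hold the effectors and BH3-only proteins, BCL2L2 (BCL-W) was nearly the same in both groups. The 3 fetal samples, in the order of their numbers here and in all later lists, stood at 30.9, 31.2 and 32.3 FPKM, and the neonatal ones at 34.2, 33.1 and 24.1 FPKM. Its log2(FC) was -0.06 with a 95% confidence interval from -0.51 to 0.39 (adjusted p = 0.867), and it turned to 0.09 without Neonatal3. BCL2L1, which encodes BCL-XL, was at 28.3, 30.2 and 38.2 FPKM before birth and at 30.1, 16.0 and 7.82 FPKM after it. The groups overlapped because Neonatal1 was at a fetal level while Neonatal3 was the lowest of all, and the log2(FC) of -0.98 (SE 0.42, adjusted p = 0.211) shrank to -0.52 without Neonatal3 and grew to -1.43 without Neonatal1. BCL2A1, a guardian best known from white blood cells, was at 2.41, 1.91 and 2.09 FPKM in the fetal group and at 4.58, 3.51 and 10.0 FPKM in the neonatal group. All neonatal values of BCL2A1 were above the fetal ones, with Neonatal3 apart from the rest, and the log2(FC) was 1.06 (SE 0.33, adjusted p = 0.108), or 0.68 without Neonatal3.

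BAK1 (ENSSSCG00000001516), a mitochondrial pore-forming effector, was the closest to the threshold among the genes matched through the reference table. It went from 5.63, 4.43 and 5.27 FPKM before birth to 8.07, 10.5 and 14.4 FPKM after it, a ratio of the means of 2.15. The lowest neonatal value exceeded the highest fetal value, and the log2(FC) was 0.95 (SE 0.23, adjusted p = 0.0573). The adjusted p fell on the other side of the threshold, at 0.0455, with the stricter filter on FPKM, and at 0.0442 without Neonatal1. It lay between 0.134 and 0.210 when any other sample was left out.

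Among the BH3-only genes, BID links the extrinsic to the intrinsic route, since caspase 8 cleaves it into its active form. BID (ENSSSCG00000000769) was at 10.6, 14.0 and 8.57 FPKM in the fetal group and at 22.4, 20.7 and 42.4 FPKM in the neonatal group. The groups did not overlap, and Neonatal3 was far above the other neonatal piglets. The log2(FC) was 1.24 (SE 0.31, adjusted p = 0.0579), and the adjusted p was 0.0474 with the stricter filter.

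PMAIP1 (NOXA), a p53 target that neutralises MCL1, had low values of 1.08, 0.739 and 0.703 FPKM before birth and 1.38, 1.94 and 2.95 FPKM after it. These groups did not overlap either, with a log2(FC) of 0.72 (SE 0.25, adjusted p = 0.132). BBC3 (PUMA), also a BH3-only p53 target, had almost identical means of 2.06 ± 0.856 and 2.02 ± 0.969 FPKM (SD over 3 piglets each). Its log2(FC) of -0.03 has a 95% confidence interval from -0.77 to 0.72, and its sign changed when Fetal1, Fetal2 or Neonatal1 was left out. BAD, which survival kinases keep inactive by phosphorylation, was among the most abundant members, at 31.7 ± 6.22 and 36.9 ± 5.59 FPKM (SD over 3 piglets each), with a log2(FC) of 0.22 (95% confidence interval from -0.28 to 0.73) that was -0.07 after quantile normalization.

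All 5 caspases of the list and APAF1 were measured, and all 6 had a higher mean log2 level in the neonatal group, with a median log2(FC) of 0.59 and 0 past the threshold. Over all mRNAs, 59.9% had a higher mean log2 level in the neonatal group. APAF1, the scaffold of the apoptosome, was at 1.32, 1.60 and 0.943 FPKM before birth and at 2.71, 2.44 and 3.05 FPKM after it. The neonatal values were close together and entirely above the fetal values, for a log2(FC) of 0.71 (SE 0.20, adjusted p = 0.0854). CASP9, the initiator caspase that APAF1 activates, overlapped between the groups at 2.43 ± 0.943 and 3.04 ± 1.04 FPKM (SD over 3 piglets each; adjusted p = 0.635).

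CASP10 and CASP8 are the initiator caspases of the death receptors. CASP10 was at 2.97, 2.31 and 2.69 FPKM in the fetal group and at 5.35, 3.96 and 7.03 FPKM in the neonatal group, without overlap, with a log2(FC) of 0.79 (SE 0.23, adjusted p = 0.0886). CASP8 varied widely within both groups, with 2.46, 2.77 and 0.758 FPKM before birth and 1.69, 1.39 and 5.01 FPKM after it. Its log2(FC) of 0.25 turned to -0.16 without Neonatal3 and to -0.10 without Fetal3, so no direction can be given for it. CASP2, an initiator caspase of the response to DNA damage, did not overlap, at 3.99, 2.48 and 3.07 FPKM against 6.63, 5.40 and 4.50 FPKM (log2(FC) 0.64, adjusted p = 0.136). The executioner CASP6 overlapped, at 11.7 ± 4.70 and 17.1 ± 5.38 FPKM (SD over 3 piglets each; adjusted p = 0.393).

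Mitochondria release DIABLO, AIFM1 and ENDOG, of which DIABLO disables the IAP proteins and ENDOG and AIFM1 act on nuclear DNA. ENDOG was at 1.50, 0.935 and 2.16 FPKM in the fetal group and at 0.420, 0.429 and 0.671 FPKM in the neonatal group. All neonatal values were below all fetal values, and the log2(FC) was -0.72 (SE 0.24, adjusted p = 0.125). It was the only pro-apoptotic member with groups apart in this direction. DIABLO was low throughout, between 0.321 and 1.43 FPKM, and AIFM1 lay between 4.80 and 8.20 FPKM, both with overlapping groups (adjusted p = 0.618 and 0.660).

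The caspase-activated nuclease DFFB had the most uneven fetal values of the list, with a coefficient of variation of 129.7%, at 0.512, 2.61 and 0.0421 FPKM before birth and 4.26, 1.85 and 3.84 FPKM after it. The groups overlapped because Fetal2 exceeded Neonatal2, and the log2(FC) of 1.22 has an SE of 0.47 (adjusted p = 0.171). Its inhibitor and chaperone DFFA was steadier, at 6.38 ± 1.01 and 8.74 ± 2.02 FPKM (SD over 3 piglets each; adjusted p = 0.333).

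The IAP proteins and CFLAR act as brakes on caspases, and 4 of the 5 were measured, with 0 past the threshold. XIAP, BIRC3, BIRC6 and CFLAR each had a lower mean log2 level in the neonatal group, with a median log2(FC) of -0.27, where 59.9% of all mRNAs had a higher one, and the confidence intervals of XIAP, BIRC6 and CFLAR included 0. BIRC3 (cIAP2), a ubiquitin ligase of the TNF receptor complex, was at 14.4, 16.3 and 13.1 FPKM in the fetal group and at 11.2, 9.99 and 10.6 FPKM in the neonatal group. The spread within each group was small and the groups did not overlap, with a log2(FC) of -0.42 (SE 0.17, adjusted p = 0.181). BIRC2, its close paralog, was not matched, and reads shared between paralogs were divided by the authors' software, so the level of BIRC3 carries that uncertainty.

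CFLAR (c-FLIP), which blocks caspase 8 at the death receptor, was at 17.0, 12.1 and 10.3 FPKM before birth and at 8.92, 10.0 and 10.6 FPKM after it. Fetal1 was far above the rest and Fetal3 lay within the neonatal range, and the log2(FC) was -0.36 (95% confidence interval from -0.86 to 0.15), or -0.17 without Fetal1. XIAP, the IAP protein that inhibits caspases most directly, was steady, at 13.8 ± 0.880 and 12.7 ± 1.38 FPKM (SD over 3 piglets each; log2(FC) -0.11, 95% confidence interval from -0.51 to 0.28). The giant IAP protein BIRC6 was at 9.65 ± 0.815 and 8.41 ± 1.33 FPKM (SD over 3 piglets each; adjusted p = 0.568). After median-of-ratios scaling the groups of XIAP and CFLAR no longer overlapped and were lower in the neonatal group, in addition to those of BIRC3, ENDOG and MDM2, while those of CASP2 overlapped.

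**Figure D2:**
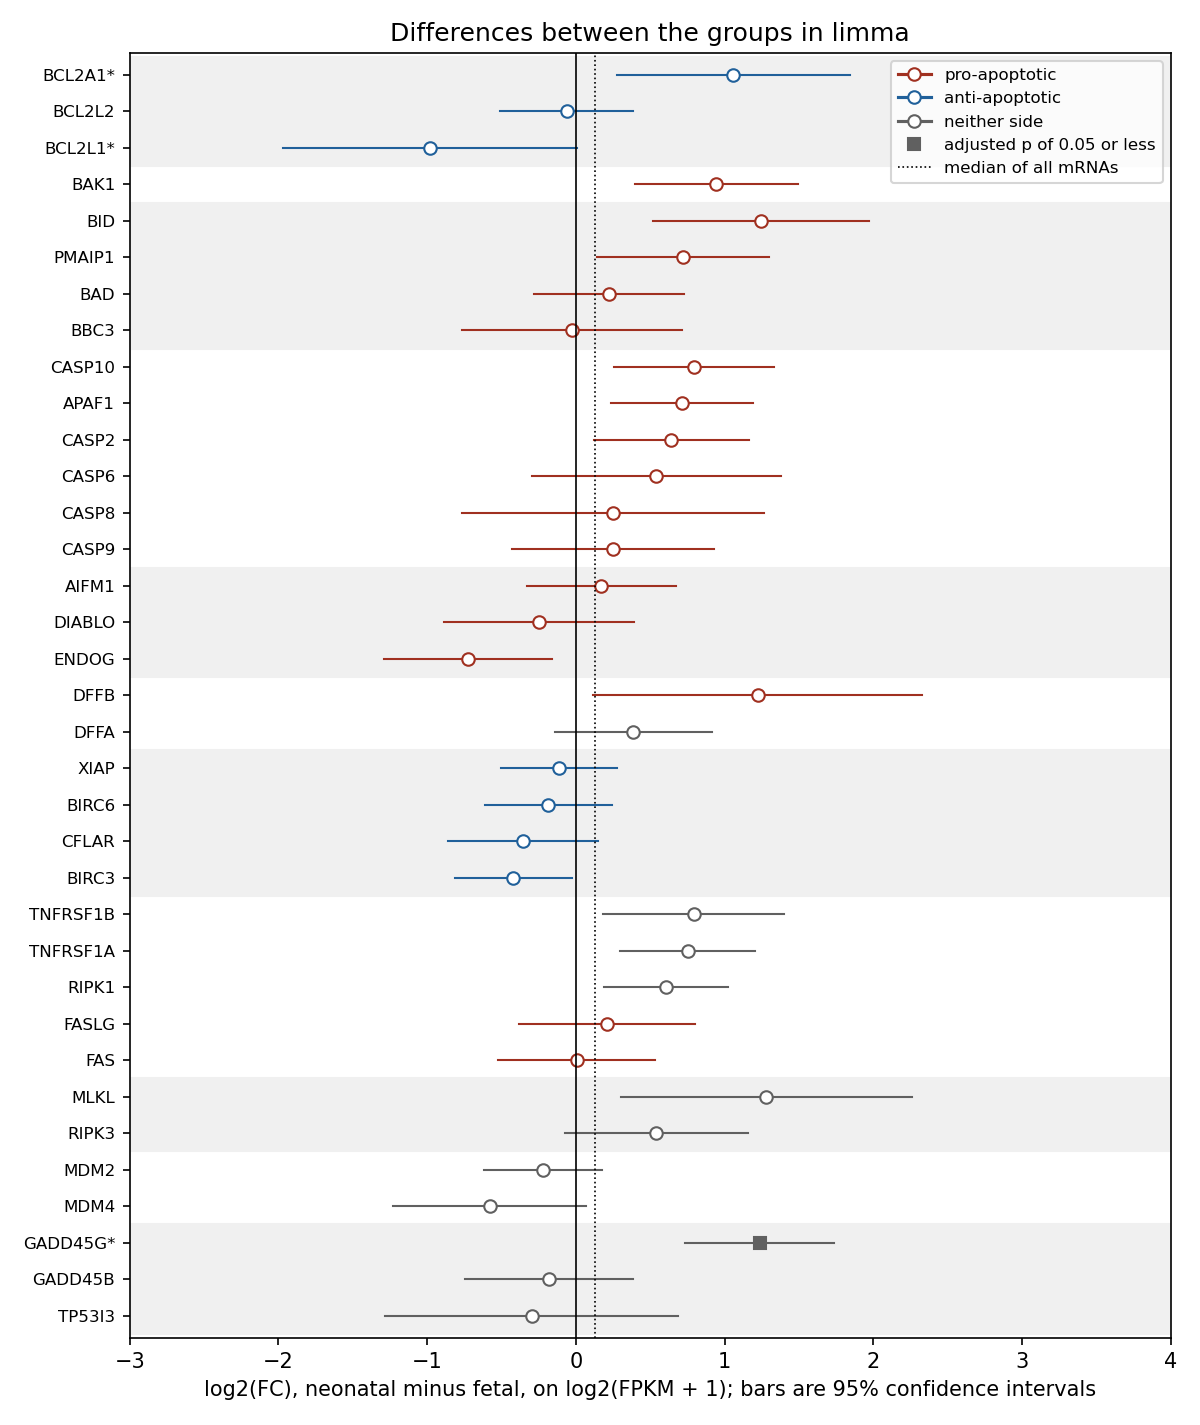
Difference between the groups for each of the 35 genes, as log2(FC) on the log2(FPKM + 1) scale (neonatal minus fetal) on the x axis, with bars for 95% confidence intervals, red for pro-apoptotic, blue for anti-apoptotic and grey for the other genes. The dotted line is the median of all mRNAs at 0.13. Only GADD45G, the filled square, is past the threshold, 14 of the 17 pro-apoptotic genes lie to the right of 0 and 6 of the 7 anti-apoptotic genes to the left.

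Set side by side, 14 of the 17 pro-apoptotic genes had a higher mean log2 level in the neonatal group and 3 (BBC3, DIABLO and ENDOG) a lower one, with a median log2(FC) of 0.25, where 59.9% of all mRNAs had a higher one. Of the 7 anti-apoptotic genes, 6 had a lower mean and BCL2A1 a higher one, with a median of -0.18. In both sets 0 genes were past the threshold. An unadjusted p under 0.05 was reached by 8 pro-apoptotic genes (47.1%, 7 higher, and ENDOG lower). It was reached by 2 anti-apoptotic genes (28.6%, BCL2A1 higher and BIRC3 lower), or by 1 of 5 (20.0%) among those matched through the reference table. Among all mRNAs it was reached by 24.2%, 17.6% higher and 6.60% lower. The median of the pro-apoptotic genes rested on CASP8, the middle gene. That median was 0.58 with a pseudocount of 0.1, 0.17 after median-of-ratios scaling and 0.21 after quantile normalization. Without the members named through the study's list, the 5 remaining anti-apoptotic genes ranged from -0.42 to -0.06, all lower in the neonatal group.

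The mean log2(FPKM + 1) of the 5 anti-apoptotic genes matched through the reference table exceeded that of the 17 pro-apoptotic genes in every sample. The gap was 1.98, 2.12 and 2.17 before birth and 1.64, 1.51 and 1.22 after it. It was smaller in every neonatal sample than in any fetal sample, and smallest in Neonatal3. After median-of-ratios scaling it was between 1.97 and 2.20 before birth and between 1.18 and 1.64 after it. The pro-apoptotic mean went from 1.76 to 2.07 in the fetal samples and from 2.20 to 2.55 in the neonatal samples, and the anti-apoptotic mean from 3.93 to 4.06 and from 3.74 to 3.85. As the genes were chosen with results of these samples known and the guardians BCL2 and MCL1 were not matched, these means are a description without a test.

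**Figure D3:**
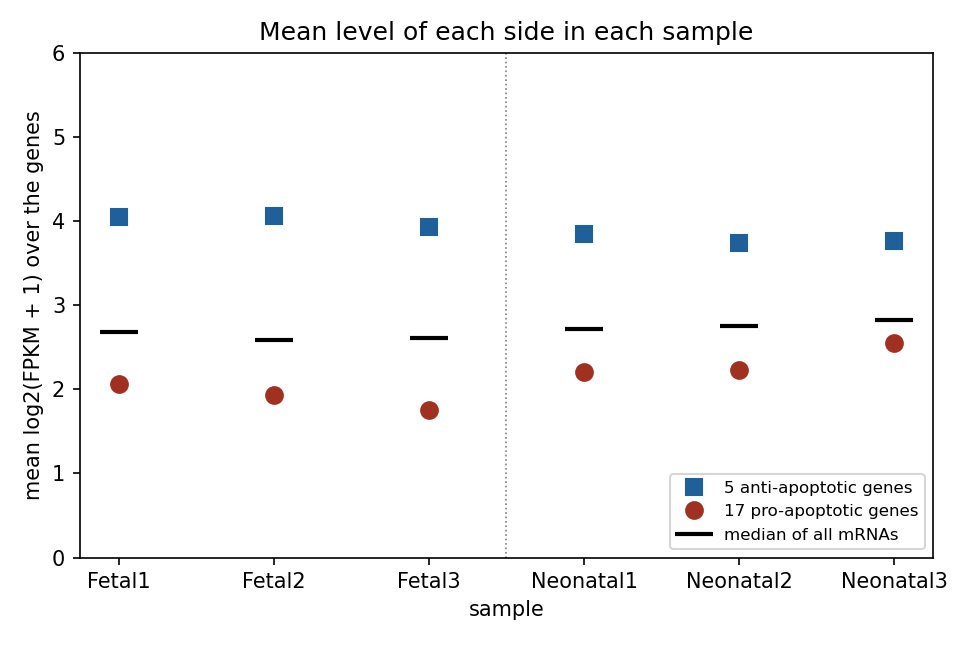
Mean log2(FPKM + 1) on the y axis over the 17 pro-apoptotic (red circles) and the 5 anti-apoptotic genes (blue squares) matched through the reference table, in each of the 6 samples on the x axis, with the median of all mRNAs as a black bar. The distance between the circle and the square shortens from between 1.98 and 2.17 in the fetal samples to between 1.22 and 1.64 in the neonatal samples.

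Of the 9 death receptors, ligands and adaptors 5 were measured, with a median log2(FC) of 0.60 and 0 past the threshold. The neonatal mean of log2(FPKM + 1) was higher for all 5, where it was higher for 59.9% of all mRNAs, but that of FAS turned lower under both scalings. TNFRSF1A, the main receptor for TNF, was at 19.6, 17.1 and 19.4 FPKM in the fetal group and at 27.4, 30.4 and 39.8 FPKM in the neonatal group. All neonatal values exceeded all fetal values, with a log2(FC) of 0.75 (SE 0.19, adjusted p = 0.0658). TNFRSF1B, the second TNF receptor, which carries no death domain and is prominent on leukocytes and endothelium, was at 18.8, 12.9 and 11.1 FPKM before birth and at 19.0, 25.9 and 31.2 FPKM after it. Its groups barely separated, since Neonatal1 exceeded Fetal1 by little, and the log2(FC) was 0.79 (SE 0.26, adjusted p = 0.120).

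RIPK1, the kinase that decides between survival and death below TNFRSF1A, varied little before birth, with a coefficient of variation of 3.36%, at 10.0, 10.7 and 10.4 FPKM, and was at 14.7, 15.0 and 19.5 FPKM after it. The groups did not overlap (log2(FC) 0.60, SE 0.18, adjusted p = 0.0930). FAS and its ligand FASLG were near the bottom of the list. FAS was at 1.02 ± 0.423 and 1.01 ± 0.190 FPKM (SD over 3 piglets each), with a log2(FC) of 0.01 and a 95% confidence interval from -0.52 to 0.54. FASLG, which cytotoxic lymphocytes express, was at 0.512 and 0.135 FPKM in Fetal1 and Fetal2 and listed at 0 in Fetal3, and after birth it was at 0.183, 0.320 and 0.694 FPKM.

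Necroptosis is the lytic form of death that RIPK1 and RIPK3 start when caspase 8 is blocked, and MLKL carries it out by breaching the cell membrane. MLKL was at 6.61, 3.03 and 10.3 FPKM in the fetal group and at 13.4, 12.2 and 25.1 FPKM in the neonatal group. The groups did not overlap, but values differed several-fold within the fetal group, and the log2(FC) of 1.28 had an SE of 0.42 (adjusted p = 0.118). RIPK3 was at 3.51, 2.94 and 4.77 FPKM against 4.22, 5.66 and 8.08 FPKM, with overlap (log2(FC) 0.54, adjusted p = 0.255).

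MDM2 and MDM4 hold the p53 pathway in check, MDM2 as a ubiquitin ligase and MDM4 as its partner. MDM2, itself a p53 target, was at 15.3, 14.0 and 16.7 FPKM before birth and at 14.0, 11.5 and 13.7 FPKM after it. The lowest fetal and the highest neonatal value were equal when rounded, and the log2(FC) was -0.22 (95% confidence interval from -0.62 to 0.18). MDM4 was at 3.03, 4.28 and 6.94 FPKM and at 3.18, 2.30 and 2.67 FPKM, with a log2(FC) of -0.58 (SE 0.28, adjusted p = 0.247) that was -0.32 without Fetal3.

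The GADD45 genes encode small stress proteins that act on MAP kinase signalling, the cell cycle and DNA demethylation. GADD45G (ENSSSCG00000009585) was at 16.6, 12.4 and 10.6 FPKM in the fetal group and at 28.1, 31.3 and 36.8 FPKM in the neonatal group. All neonatal values were well above the fetal ones, a ratio of the means of 2.43, and the log2(FC) was 1.24 (SE 0.21, adjusted p = 0.0194). Without Fetal2, Fetal3, Neonatal2 or Neonatal3 its adjusted p lay between 0.0689 and 0.0987. GADD45G carries its symbol here only because the study listed it as differentially expressed, and 24.9% of the 362 mRNAs named in that way were past the threshold.

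GADD45B differed from its relative, at 45.6, 40.6 and 39.2 FPKM before birth and 32.3, 29.6 and 51.7 FPKM after it. Neonatal3 held the highest and Neonatal2 the lowest value of all, and the log2(FC) was -0.18 (95% confidence interval from -0.74 to 0.39), or -0.42 without Neonatal3 and -0.03 without Neonatal2. TP53I3, an oxidoreductase induced by p53, overlapped at 1.04, 1.46 and 4.22 FPKM and at 0.637, 2.51 and 1.46 FPKM, and its log2(FC) of -0.30 became 0.11 without Fetal3.

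Ratios within a sample were formed for 3 pairs of genes with opposed or paired roles. CASP8 to CFLAR was 0.145, 0.229 and 0.0738 in the fetal samples and 0.190, 0.139 and 0.472 in the neonatal samples. MDM2 to MDM4 was 5.06, 3.28 and 2.41 against 4.42, 4.99 and 5.11. BIRC3 to DIABLO ranged from 10.1 to 24.3 before birth and from 7.80 to 33.1 after it. All 3 ratios overlapped between the groups, with two-sided p values of 0.5, 0.3 and 0.8 in exact permutation tests on the log2 ratio (0.75, 0.75 and 0.8 after Benjamini-Hochberg adjustment over the 3 ratios), where 0.1 is the smallest p that 3 animals against 3 allow. The planned ratios of BAX to BCL2 and of BCL2L11 to MCL1 could not be formed without rows for these genes.

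Neonatal3 had the highest neonatal value in 22 of the 35 genes, or 62.9%, where it had the highest in 43.8% of all mRNAs. Neonatal2 held the highest value in 4 genes (11.4%, against 30.1% of all mRNAs) and Neonatal1 in 9. The median-of-ratios size factor of Neonatal3 was also the highest, at 1.15, and its part in this count was not tested. Examples of genes that stood apart in Neonatal3, picked without a set cut-off, were BID, BCL2A1, MLKL, CASP8, GADD45B and TNFRSF1A on the high side. BCL2L1 was an example on the low side. In the fetal group Fetal1 was highest in 16 of the genes (45.7%), close to its 43.5% of all mRNAs.

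Summed markers of neutrophils, proliferating cells, mesenchymal cells and alveolar type II cells did not overlap between the groups. The sums of the other lists overlapped. The summed FPKM of 6 neutrophil markers was between 34.4 and 46.5 in the fetal samples and between 195.8 and 316.5 in the neonatal samples, most of it S100A8 (log2(FC) 2.81, adjusted p = 0.00254), and 1 of the 6 was past the threshold. ELANE, which defines granule-forming neutrophil precursors, was listed at 0 in all 3 neonatal samples and at 1.28, 0.562 and 0.0710 FPKM in the fetal ones. For 7 macrophage markers the sum was between 277.9 and 664.7 before birth and between 504.2 and 1195 after it, with 7 of 7 higher on average and 0 past the threshold. For 13 lymphocyte markers it was between 22.6 and 28.7 and between 25.2 and 44.0, with 0 past the threshold. Neonatal3 had the highest neonatal sum of these 3 lists, and also of the alveolar type I, alveolar type II, erythroid and proliferation lists. The 9 markers of proliferating cells all rose, from a sum between 9.85 and 12.8 to one between 84.4 and 101.9. Of 6 mesenchymal markers 2 rose, and the sum was between 1143 and 1523 and between 2039 and 2902. The sum of 8 alveolar type II markers, most of it SFTPC, was between 4517 and 5132 and between 5820 and 10690. Of these 8 markers, 6 were higher and 2 lower on average in the neonatal group, with 0 past the threshold. The sum of 7 erythroid markers, most of it HBB, was between 1264 and 2708 and between 971.9 and 1539. Of these 7 markers, 3 were higher and 4 lower on average in the neonatal group, also with 0 past the threshold. The sums of alveolar type I markers (871.8 to 1302 and 749.9 to 1379) and endothelial markers (295.1 to 336.6 and 278.8 to 320.2) overlapped as well, with 0 past the threshold. The part of these cells in the differences of the apoptosis genes was not tested.

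**Figure D4:**
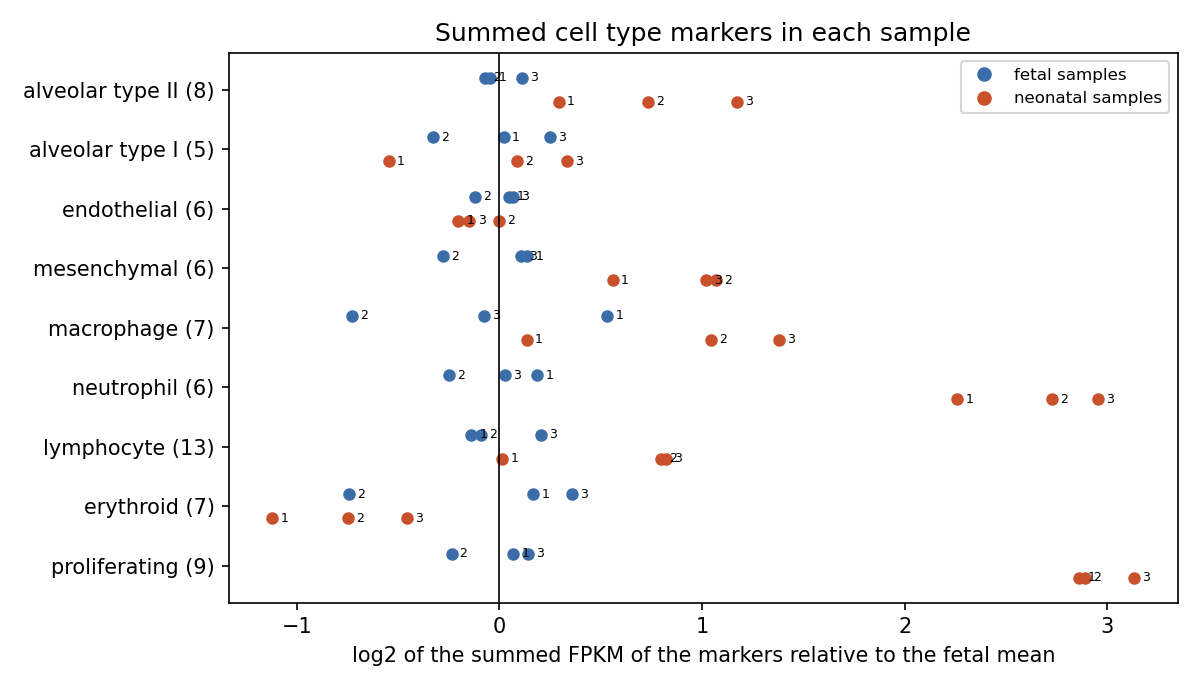
Summed FPKM of each list of cell type markers (number of markers in parentheses) relative to its fetal mean on a log2 scale on the x axis, 1 point per sample with its replicate number, fetal in blue and neonatal in red. The neutrophil and proliferating lists separate by more than 2 log2 units, while the alveolar type I, endothelial, macrophage, lymphocyte and erythroid lists overlap.

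The wider pathway was read from a pair of lists of genes that were not members. Of 54 other apoptosis genes, 28 were matched through the reference table, and 3 rose and 0 fell, which is 10.7% of them against 7.47% of all mRNAs matched through that table. DAPK2, a calcium-dependent death-associated kinase, rose from 0.790, 1.54 and 1.20 FPKM to 4.74, 10.8 and 11.9 FPKM (log2(FC) 2.15, SE 0.34, adjusted p = 0.0138). PARP1, the DNA damage sensor that executioner caspases cleave, rose from 8.71 ± 0.967 to 16.6 ± 2.39 FPKM (SD over 3 piglets each; log2(FC) 0.85, adjusted p = 0.0376). AVEN, an inhibitor of apoptosome assembly and so a brake on cell death, rose from 8.55 ± 1.08 to 17.1 ± 4.11 FPKM (SD over 3 piglets each; log2(FC) 0.91, adjusted p = 0.0489). The median log2(FC) of the 28 genes was 0.20.

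Of 55 other genes of the p53 network, 35 were matched, and 4 rose and 0 fell, or 11.4% against the same 7.47%, with a median log2(FC) of 0.22. THBS1, an extracellular inhibitor of angiogenesis that p53 can induce, rose from 14.2 ± 3.57 to 48.1 ± 1.23 FPKM (SD over 3 piglets each; log2(FC) 1.72, adjusted p = 0.00726) and was the only 1 of these 7 genes past the threshold whichever sample was left out. PLK2, a p53-induced kinase, rose from 11.2 ± 2.47 to 30.7 ± 1.93 FPKM (SD over 3 piglets each; log2(FC) 1.39, adjusted p = 0.00960).

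AEN, a p53-induced exonuclease that degrades DNA during apoptosis, rose from 5.17 ± 0.591 to 10.4 ± 1.86 FPKM (SD over 3 piglets each; log2(FC) 0.88, adjusted p = 0.0411). CHEK1, the checkpoint kinase that is active in S and G2 phase, rose from 0.468, 0.662 and 0.286 FPKM to 1.80, 4.64 and 5.57 FPKM (log2(FC) 1.68, adjusted p = 0.0308). The proliferation markers were also higher in the neonatal group, and their part in this result was not tested. With Neonatal1 left out, 3 other apoptosis genes and 4 other p53 network genes passed, but the first number was 0 without any of the other samples, and the second was 1 without Fetal1, Fetal2 or Neonatal2 and 2 without Fetal3 or Neonatal3.

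**Figure D5:**
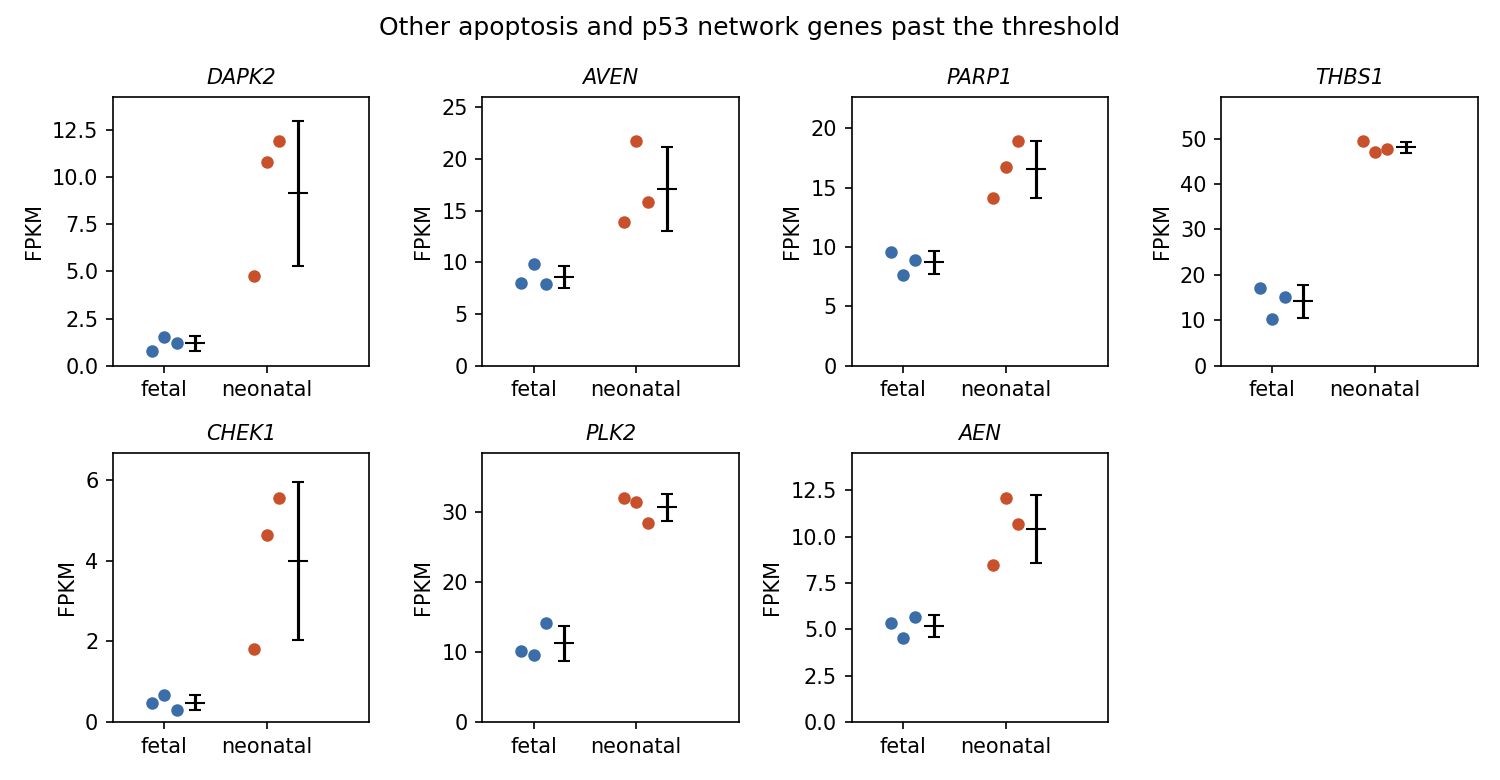
FPKM on the y axis of the 7 other apoptosis and p53 network genes past the threshold, with 1 point per sample, fetal in blue and neonatal in red, and the mean with its SD (n = 3) in black beside each group. In all 7 panels the 3 neonatal points lie above the 3 fetal points, with THBS1 going from a mean of 14.2 to 48.1 FPKM and PARP1 from 8.71 to 16.6 FPKM.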

How the data were processed

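Lung RNA of 6 piglets, 3 fetal and 3 neonatal, was sequenced by the authors from strand-specific Ribo-Zero libraries. The deposited table holds FPKM per gene, which the authors computed with Cufflinks 2.2.1 after TopHat 2.1.0 had placed the reads on Sscrofa10.2, keeping mRNAs above 0.5 FPKM in at least 1 sample (14579 of 14579 met this). The table holds no counts, and no counting error is given. Table columns were matched to samples by name (0 left over). The lncRNA table was not used here.

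Symbols came from a reference table for 9478 identifiers and from the study's list of differentially expressed mRNAs for 362 more. That list's fold changes and q values were not used. The assembly of the gene table at hand differs from Sscrofa10.2, so no coordinates are given, and no sequences were at hand.

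log2(FPKM + 1) was fitted with limma 3.58.1 under R 4.3.3, the prior variance following the mean level, and p was adjusted over all mRNAs by Benjamini-Hochberg, and the fit was tested on simulated data. Ratios were compared by exact permutation in Python 3.11.15 with scipy 1.17.1. Where nothing else is stated, p-values weigh a group difference against the spread between piglets, which limma draws toward that of mRNAs of similar level. Members, roles and lists were chosen with earlier results of these data known. Every member may be named, and of the other pathway lists those past the threshold. Alternatives were pseudocounts of 0.5 and 0.1, a stricter filter (FPKM above 1 in 3 or more samples), scaling by median of ratios, quantile normalization, no trend, a replicate block and each sample left out. Counts of genes with groups apart under each scaling, and counts with or without symbols of the study's list, were added after the data had been seen. From the wider lists 1 gene was left out and is not reported here.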

Additional observations from a re-analysis of the deposited data

How the results depend on the processing

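The count of mRNAs past the threshold was 1001. Leaving out 1 sample brought it to between 196 and 944 (163 to 785 higher and 33 to 159 lower in the neonatal group). Lower calls numbered 335 after median-of-ratios scaling and 486 after quantile normalization, against 212, and the median of all mRNAs moved to -0.0090 and -0.0382. The members past the threshold numbered 1, or 3 (2 of them pro-apoptotic) with the stricter filter, whose construction tests fewer genes, and 0 without the members named through the study's list. With 1 sample left out there were between 0 and 2, all higher in the neonatal group, and between 0 and 1 pro-apoptotic and 0 anti-apoptotic genes. The other apoptosis genes then numbered between 0 and 3, and the other p53 network genes between 1 and 4.

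Same-numbered samples did not deviate together, with correlations of -0.0407, -0.00434 and 4.67e-04 for numbers 1, 2 and 3. No link beyond the number is stated for them, and these correlations cannot exclude a shared step of handling. With the replicate block 401 mRNAs passed (336 higher and 65 lower), with 0 members, 1 other apoptosis gene and 2 other p53 network genes. GADD45G, PARP1, AVEN, AEN and CHEK1 then had adjusted p values of 0.0739, 0.120, 0.0934, 0.118 and 0.0560.

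AVEN was not past the threshold after median-of-ratios scaling (0.0815), quantile normalization (0.0818) or without a trend (0.0577), nor AEN after median-of-ratios scaling (0.0538). The stricter filter left out ENDOG, FAS and FASLG, and the median of the pro-apoptotic genes was then 0.59. This median was 0.58 with a pseudocount of 0.1, 0.17 after median-of-ratios scaling and 0.21 after quantile normalization. With 1 sample left out it was between 0.25 and 0.48. That of the anti-apoptotic genes was -0.34 and -0.35 under both scalings and between -0.29 and -0.12 with 1 sample left out. The sign turned for BAD after quantile normalization (-0.0706), and for FAS after median-of-ratios scaling (-0.0754) and quantile normalization (-0.10). The log2 ratio of BIRC3 to DIABLO was 0.18, and -0.18 on FPKM + 1. With 1 sample left out, ranges that crossed 0 were -0.32 to 0.72 for that ratio, -0.15 to 0.0938 for BCL2L2, -0.26 to 0.20 for BBC3, -0.16 to 0.50 for CASP8, -0.0020 to 0.30 for AIFM1, -0.11 to 0.17 for FAS and -0.57 to 0.11 for TP53I3. The cause was not tested. The remaining members kept their direction under the alternatives run. Without counts, the precision of genes under 1 FPKM cannot be judged.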
